A study of Homo sapiens with 12 samples.

Results

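The genes described here are 10 human genes of the leukaemic programme driven by rearranged KMT2A: HOXA3, HOXA5, HOXA6, HOXA7, HOXA9, HOXA10, MEIS1, PBX3, MEF2C and KMT2A itself. They were taken as the entries of the deposited count table whose Ensembl identifier carries any of these symbols in GENCODE 29. This gave 10 of the 58051 genes in the table. The matching used no expression value, but the symbols were chosen with earlier results of these data known. In MV4-11 cells 6 of the 10 were expressed, and the other 4, HOXA3, HOXA5, HOXA6 and HOXA7, had between 0 and 6 reads in a library. After 6 h with a compound directed at CDK6 or at CDK4 and CDK6, none of the 6 differed between any pair of groups by more than 1.27-fold. HOXA10 fell by 9.14% to 10.8% of its level with the 3 compounds, KMT2A rose with BSJ-03-123, and MEIS1 rose slightly with YKL-06-102.

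MV4-11 is a cell line from a human acute myeloid leukaemia with a t(4;11) translocation, which makes the KMT2A-AFF1 fusion, and with a mutant FLT3 receptor kinase that has an internal tandem duplication. Polyadenylated RNA was sequenced after 6 h in 200 nM BSJ-03-123, 200 nM YKL-06-102, 200 nM Palbociclib or the vehicle alone (0.1% DMSO), with 3 libraries in each of the 4 groups. Palbociclib is a catalytic inhibitor of CDK4 and CDK6, and the submitters describe the other 2 compounds as phthalimide conjugates specific for CDK6, in a study of selective CDK6 degradation. All groups are the same cell line. The labels do not say whether the 3 libraries of a group came from separate cultures, so the p-values reflect library-to-library spread that could be technical only. Library totals ranged from 18764307 to 25539858 counts, so that 3 counts, the limit a count of 0 allows, correspond to 0.121 to 0.163 CPM (counts scaled by library size). Of 12 myeloid marker genes 11 were expressed, with a summed level of 2085 to 2106 CPM in DMSO, 2222 to 2242 in BSJ-03-123, 2258 to 2298 in Palbociclib and 2535 to 2565 in YKL-06-102, and CD14 had 1 to 11 reads. The epithelial genes EPCAM and KRT19, the B cell gene MS4A1, the erythroid gene HBB and the platelet gene PF4 were at 0 in all 12 libraries. DMSO replicate 2 stood farthest from its group, and calls of the genes named below that change without it are given beside them.

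KMT2A encodes a histone H3 lysine 4 methyltransferase that keeps HOX genes active in early blood cells. In leukaemia with a KMT2A fusion, the amino-terminal part, which is brought to chromatin with menin and LEDGF, is joined to a partner that recruits elongation factors and DOT1L, and genes of the posterior HOXA cluster and MEIS1 stay highly transcribed. HOXA9 and HOXA10 are homeodomain factors of progenitor cells, MEIS1 and PBX3 are TALE homeodomain proteins that bind DNA together with them, and MEF2C is a MADS-box factor expressed with them in KMT2A-rearranged leukaemia.

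The 6 HOXA genes lie on the minus strand of chromosome 7 in GRCh38. HOXA9 (ENSG00000078399) spans chr7:27162435-27175180 and HOXA10 (ENSG00000253293) spans chr7:27170591-27180261. The middle genes are HOXA5 (ENSG00000106004, chr7:27141052-27143668), HOXA6 (ENSG00000106006, chr7:27145396-27150603) and HOXA7 (ENSG00000122592, chr7:27153716-27157936), and HOXA3 (ENSG00000105997) spans chr7:27106184-27152581. MEIS1 (ENSG00000143995) lies at chr2:66433452-66573869, MEF2C (ENSG00000081189) at chr5:88717117-88904257, PBX3 (ENSG00000167081) at chr9:125747345-125967377 and KMT2A (ENSG00000118058) at chr11:118436464-118526832. All 10 are annotated as protein coding.

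RefSeq promoters (GRCh38.p14) were matched for 9 of the 10 genes, all but HOXA5, in 22 windows. The 250 bases before the annotated start are shown for HOXA6, a gene near 0 here, for its expressed neighbours HOXA9 and HOXA10, and for MEIS1, because these windows lie outside annotated exons and set a silent gene of the cluster beside active ones. Each is written 5′ to 3′ on the gene's own strand, with the bases of CpG dinucleotides in capitals. Their positions are chr7:27147775-27148024 for HOXA6, chr7:27165538-27165787 for HOXA9, chr7:27174321-27174570 for HOXA10, all on the minus strand, and chr2:66434875-66435124 for MEIS1, on the plus strand.
HOXA6: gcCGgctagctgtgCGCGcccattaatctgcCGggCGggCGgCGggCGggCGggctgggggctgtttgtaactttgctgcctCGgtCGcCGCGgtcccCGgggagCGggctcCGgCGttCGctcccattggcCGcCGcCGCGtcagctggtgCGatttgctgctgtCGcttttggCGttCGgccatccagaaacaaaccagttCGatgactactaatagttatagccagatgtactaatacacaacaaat
HOXA9: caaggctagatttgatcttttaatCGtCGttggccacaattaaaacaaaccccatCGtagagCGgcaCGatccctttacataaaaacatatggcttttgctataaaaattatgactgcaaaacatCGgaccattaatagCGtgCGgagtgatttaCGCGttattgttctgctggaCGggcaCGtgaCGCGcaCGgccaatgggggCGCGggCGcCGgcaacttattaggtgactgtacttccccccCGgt
HOXA10: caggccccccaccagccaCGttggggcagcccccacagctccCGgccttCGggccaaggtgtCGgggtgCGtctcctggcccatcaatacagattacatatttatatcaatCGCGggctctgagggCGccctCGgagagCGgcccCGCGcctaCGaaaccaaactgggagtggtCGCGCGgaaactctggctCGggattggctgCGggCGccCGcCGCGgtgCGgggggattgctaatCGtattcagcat
MEIS1: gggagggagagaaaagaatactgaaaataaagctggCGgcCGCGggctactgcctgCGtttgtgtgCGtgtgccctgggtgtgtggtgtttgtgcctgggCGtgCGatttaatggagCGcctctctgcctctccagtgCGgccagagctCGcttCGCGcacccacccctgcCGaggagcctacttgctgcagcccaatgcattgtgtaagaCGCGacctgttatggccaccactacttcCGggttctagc

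The near-silent HOXA6 had 27 CpG dinucleotides in its window, the expressed HOXA10 had 24, HOXA9 had 20 and MEIS1 had 16. Over all 35116 promoters of the same length the median was 11, with quartiles at 3 and 23, so all 4 windows were above it. Of the windows shown, that of HOXA6 had the most CpG, but other windows of the low genes differed. The 7 windows of HOXA3, also near 0, had 0 to 26, and those with 4 and 0 lay outside annotated exons. The HOXA7 window had 28, and the HOXA10 window not shown had 19. The letters TGATTTA, the core of HOX-PBX composite sites, were searched on both strands and occurred once in the HOXA9 window and in 2.59% of all promoters. The MEIS and PKNOX core TGACAG was in none of the 4 windows and in 13.0% of all promoters. It occurred in the PBX3 window, which is not shown. E2F letters (TTTGGCGC, TTTCCCGC, TTTGCCGC or TTTCGCGC, both strands) were likewise in none of the 4, and in 2.79% of all promoters. Among the 22 windows of the set they occurred in 1 window, of HOXA3. These matches describe letters only.

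Within the HOXA cluster, reads came from the posterior genes and were nearly absent from the middle ones. HOXA9 had 863 to 1222 reads in a library and HOXA10 had 1328 to 1909, while HOXA5, the nearest to detection of the low genes, had 15 reads over all 12 libraries. HOXA6 had 7 reads in total, HOXA3 had 6 and HOXA7 had 5. Of the 15 HOXA5 reads, 6 came from YKL-06-102 replicate 3, and the other 2 YKL-06-102 libraries had 0. These 4 genes were below the minimum read count of the test, so no difference between groups was tested for them, and their counts lie at or near the limit that a count of 0 allows.

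Other genes of the cluster extended the profile on both sides. HOXA11, next to HOXA10, had 5.87 ± 0.526 CPM in DMSO (SD, n = 3), or 2.54 ± 0.228 CPM per kilobase of exon, and HOXA13, the last gene, had 2 to 8 reads in a library. HOXA2 had 0 reads in all 12 libraries, and HOXA4 had 0 to 3. Per kilobase, the level in DMSO stepped from under 0.1 at HOXA2 to HOXA7 up to 15.5 at HOXA9 and 20.0 at HOXA10, and was lower again at HOXA11.

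**Figure D1:**
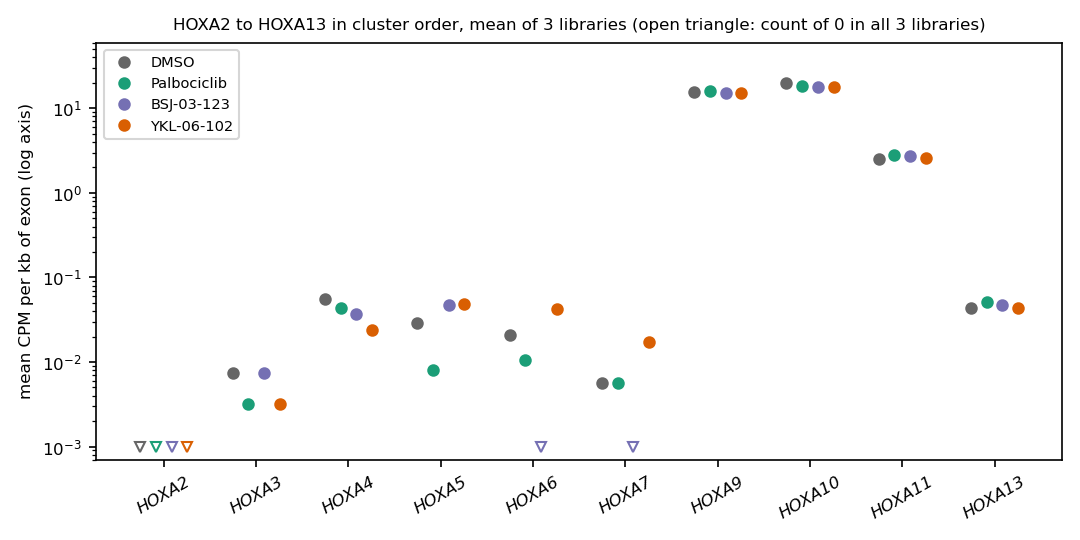
Mean CPM per kilobase of exon of 3 libraries (log axis) for HOXA2 to HOXA13 in their order along the cluster, with a point for each of the 4 groups and an open triangle where all 3 libraries had a count of 0. HOXA9 and HOXA10 stand above 10 CPM per kilobase in every group, while HOXA2 to HOXA7 stay below 0.1.

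Part of the HOXA exon sequence is shared with other annotated genes, and the sources used here do not give the strand setting of the counting. If strand was used, 86.9% of HOXA9 exon bases and 90.1% of HOXA10 exon bases belong to no other gene, and if it was not, 73.0% and 73.7%, since HOXA10-AS runs across them. HOXA7 would keep 37.5% of its bases and HOXA6 59.9% without strand. HOXA5 keeps 100% either way, so its low count was measured on bases that it shares with no other gene. The readthrough transcript AC004080.3, which overlaps HOXA9 and HOXA10, had a count of 0. It has 0 exon bases of its own with or without strand, so this count cannot show whether readthrough occurred. HOXA10-AS had 9.89 CPM in DMSO. Of 704 genes whose exon bases are all covered by genes of the opposite strand, 49.3% had a count, against 24.2% of 778 genes covered in the same way by genes of their own strand. Genes with a total of at least 100 counts went the other way, at 40 and 106, as did the summed counts, at 64392 and 132632. These values do not settle the strand setting.

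Per kilobase of exon, PBX3 was the highest of the set in DMSO at 21.6 ± 0.325 CPM per kilobase (SD, n = 3), followed by HOXA10 at 20.0 ± 0.689 and HOXA9 at 15.5 ± 0.367. MEIS1 had 10.2 ± 0.540, MEF2C 5.56 ± 0.147 and KMT2A 4.13 ± 0.311 CPM per kilobase. On this scale 82.3% of tested genes were below PBX3, 80.9% below HOXA10, 75.8% below HOXA9, 66.6% below MEIS1, 53.3% below MEF2C and 47.0% below KMT2A. The order depends on the length used. Over the bases that no other gene shares on either strand, HOXA10 came first at 27.2 ± 0.936, and PBX3 at 21.6 ± 0.325 and HOXA9 at 21.3 ± 0.503 differed by less than their SDs. Over the longest transcript, PBX3 led at 33.6 ± 0.507, HOXA9 at 22.8 ± 0.539 and MEIS1 at 21.7 ± 1.15 lay within their SDs of each other, and MEF2C at 8.64 ± 0.229 and KMT2A at 7.77 ± 0.586 came last.

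**Figure D2:**
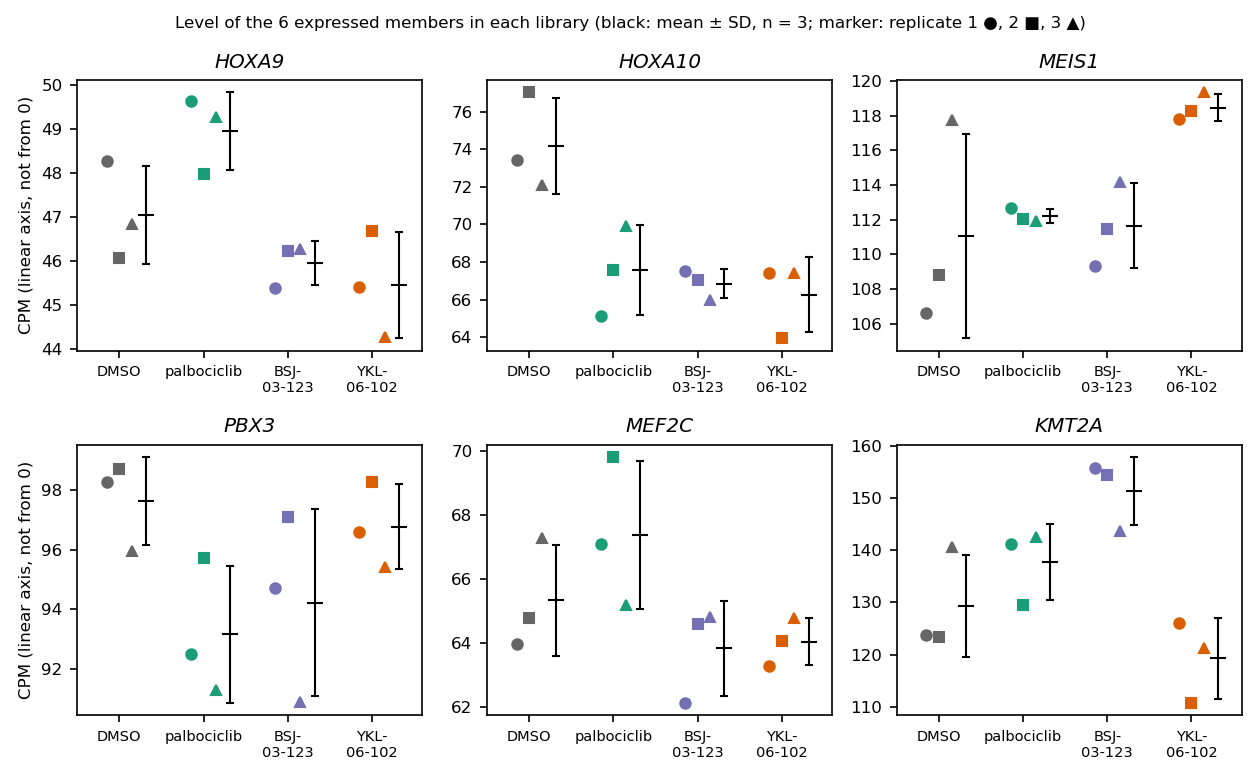
CPM of the 6 expressed genes in each of the 12 libraries (linear axes that do not start at 0), with the replicate given by the marker and the mean ± SD of 3 libraries in black. All 9 treated libraries lie below the 3 DMSO libraries for HOXA10, and the 3 BSJ-03-123 libraries lie highest for KMT2A. The YKL-06-102 libraries lie highest for MEIS1, by a narrow margin over DMSO, and the Palbociclib libraries lie below DMSO for PBX3. For HOXA9 and MEF2C each treated group overlaps DMSO, and the Palbociclib libraries lie above those of both conjugates.

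HOXA10, a homeodomain factor of myeloid progenitors, was lower with all 3 compounds. In DMSO replicates 1, 2 and 3 it had 73.4, 77.0 and 72.1 CPM. It had 65.2, 67.6 and 69.9 CPM in the Palbociclib libraries, 67.5, 67.0 and 66.0 in the BSJ-03-123 libraries, and 67.4, 64.0 and 67.4 in the YKL-06-102 libraries. Every treated library was below every DMSO library, and the treated groups overlapped each other. The log2 fold change against DMSO was -0.14 ± 0.040 (SE) with Palbociclib (adjusted p = 0.00894), -0.15 ± 0.041 with BSJ-03-123 (adjusted p = 0.00535) and -0.16 ± 0.040 with YKL-06-102 (adjusted p = 0.00168), all from edgeR's quasi-likelihood test. These are decreases of 9.14%, 10.0% and 10.8%. The 3 comparisons share the DMSO libraries, so they are not independent of each other. The calls with BSJ-03-123 and YKL-06-102 were kept in 16 of 16 alternative analyses. The call with Palbociclib was kept in 13 of 16 and was lost with scaling by library totals (log2 fold change -0.091, adjusted p = 0.0757), with no filter on low counts (-0.12, adjusted p = 0.0538) and without Palbociclib replicate 1 (-0.11, adjusted p = 0.0689).

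HOXA9, the partner of MEIS1 in leukaemic transformation, did not pass the test in any comparison. It had 48.3, 46.1 and 46.8 CPM in DMSO, 49.6, 48.0 and 49.3 with Palbociclib, 45.4, 46.2 and 46.3 with BSJ-03-123, and 45.4, 46.7 and 44.3 with YKL-06-102. Each treated group overlapped DMSO, and the Palbociclib libraries lay above all libraries of both conjugates. Against DMSO the log2 fold changes were 0.058 (95% interval -0.029 to 0.15) with Palbociclib, -0.032 (-0.12 to 0.056) with BSJ-03-123 and -0.049 (-0.14 to 0.038) with YKL-06-102. HOXA9 and HOXA10 are neighbours that each share exon bases with HOXA10-AS and AC004080.3, but not with each other. Only HOXA10 passed the test against DMSO, and the difference between the 2 genes was not tested.

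MEIS1, the TALE cofactor of HOXA9, was highest with YKL-06-102. It had 106.6, 108.8 and 117.8 CPM in DMSO, 112.7, 112.1 and 111.9 with Palbociclib, 109.3, 111.5 and 114.2 with BSJ-03-123, and 117.8, 118.3 and 119.4 with YKL-06-102. The lowest YKL-06-102 library, at 117.81 CPM, was just above DMSO replicate 3, at 117.77 CPM. The log2 fold change of YKL-06-102 against DMSO was 0.094 ± 0.036, an increase of 6.76% (adjusted p = 0.0411, edgeR). It was not called without DMSO replicate 1 (0.085, adjusted p = 0.106) or without YKL-06-102 replicate 1 (0.098, adjusted p = 0.0732). With Palbociclib it changed by 0.016 (95% interval -0.059 to 0.091) and with BSJ-03-123 by 0.0092 (-0.066 to 0.085), neither of which passed the test.

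PBX3, which stabilises HOXA9 and MEIS1 on DNA, and MEF2C, a factor of lymphoid and monocytic progenitors, passed the test in no comparison. PBX3 had 98.3, 98.7 and 95.9 CPM in DMSO, 92.5, 95.7 and 91.3 with Palbociclib, 94.7, 97.1 and 90.9 with BSJ-03-123, and 96.6, 98.3 and 95.4 with YKL-06-102. The Palbociclib libraries lay below the DMSO libraries, with a log2 fold change of -0.068 (95% interval -0.14 to 0.0060, adjusted p = 0.156, edgeR), and the other groups overlapped DMSO. MEF2C had 64.0, 64.8 and 67.3 CPM in DMSO, 67.1, 69.8 and 65.2 with Palbociclib, 62.1, 64.6 and 64.8 with BSJ-03-123, and 63.3, 64.1 and 64.8 with YKL-06-102. All treated groups of MEF2C overlapped DMSO, and its intervals against DMSO ran from -0.12 to 0.13 over the 3 compounds.

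KMT2A had the widest spread between groups. Its counts join transcripts of the intact allele and of the fusion, which the gene-level table cannot separate. It had 123.9, 123.4 and 140.5 CPM in DMSO, 141.2, 129.4 and 142.5 with Palbociclib, 155.7, 154.4 and 143.7 with BSJ-03-123, and 126.0, 110.8 and 121.2 with YKL-06-102. The BSJ-03-123 libraries lay above all others, while Palbociclib and YKL-06-102 each overlapped DMSO. With BSJ-03-123 it rose by 0.23 ± 0.049 on the log2 scale against DMSO, or 17.2% (adjusted p = 0.000668, edgeR). With Palbociclib the change was 0.093 ± 0.049 (adjusted p = 0.153) and with YKL-06-102 it was -0.11 ± 0.050 (adjusted p = 0.0769). Both passed the test when single libraries were left out: Palbociclib at 0.16 (adjusted p = 0.0115) without DMSO replicate 3, and YKL-06-102 at -0.13 (adjusted p = 0.0337) without DMSO replicate 2 and at -0.15 (adjusted p = 0.0303) without YKL-06-102 replicate 1. Palbociclib also passed with scaling by library totals (0.14, adjusted p = 0.0276) and with no filter on low counts (0.11, adjusted p = 0.0284).

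The longest transcript of KMT2A has 16628 bases, and long transcripts as a class were also higher with BSJ-03-123. The 709 tested genes in the longest 5%, of at least 8954 bases, had a median log2 fold change of 0.082 with BSJ-03-123 against DMSO, where all genes had 0.0075. In YKL-06-102 against BSJ-03-123 their median was -0.093, against -0.0052 for all genes. With a trend over transcript length removed, an alternative chosen after seeing the data, KMT2A changed by 0.13 with BSJ-03-123 against DMSO (adjusted p = 0.0213), by -0.12 in YKL-06-102 against Palbociclib (adjusted p = 0.0383) and by -0.21 in YKL-06-102 against BSJ-03-123 (adjusted p = 0.000364). The calls were kept and the sizes were smaller. With YKL-06-102 against DMSO the long class had a median of -0.019, beside -0.017 over all genes. The related long genes KMT2C and KMT2D, methyltransferases of histone H3 lysine 4 at enhancers, also rose with BSJ-03-123, by 0.27 ± 0.057 and 0.36 ± 0.051 (adjusted p = 0.000559 and 2.57e-06), and by 0.17 and 0.24 with the length trend removed.

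Counts of calls in the set were read against the share of all 14214 tested genes. Palbociclib against DMSO called 1 of the 6 tested genes lower and 0 higher, where 17.6% of all genes were called lower, 15.6% higher and 33.3% in either direction. BSJ-03-123 against DMSO called 1 higher and 1 lower, where 12.4% and 15.7% of all genes were called, 28.1% in all. YKL-06-102 against DMSO likewise called 1 higher and 1 lower, where 15.6% and 21.3% were called, 36.9% in all. Groups did not overlap for 2 of the 6 genes in each of these comparisons, and for 41.7%, 37.2% and 44.7% of all genes. The counts are near the background and are no result about the set. The median log2 fold change of the 6 genes was 0.031 with Palbociclib, -0.032 with BSJ-03-123 and -0.039 with YKL-06-102, beside 0.014, 0.0075 and -0.017 over all tested genes. Scaling by library totals moved the split of all called genes from 2224 higher and 2507 lower to 3396 and 1949 with Palbociclib, from 1763 and 2234 to 2852 and 1765 with BSJ-03-123, and from 2215 and 3034 to 2877 and 2422 with YKL-06-102.

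**Figure D3:**
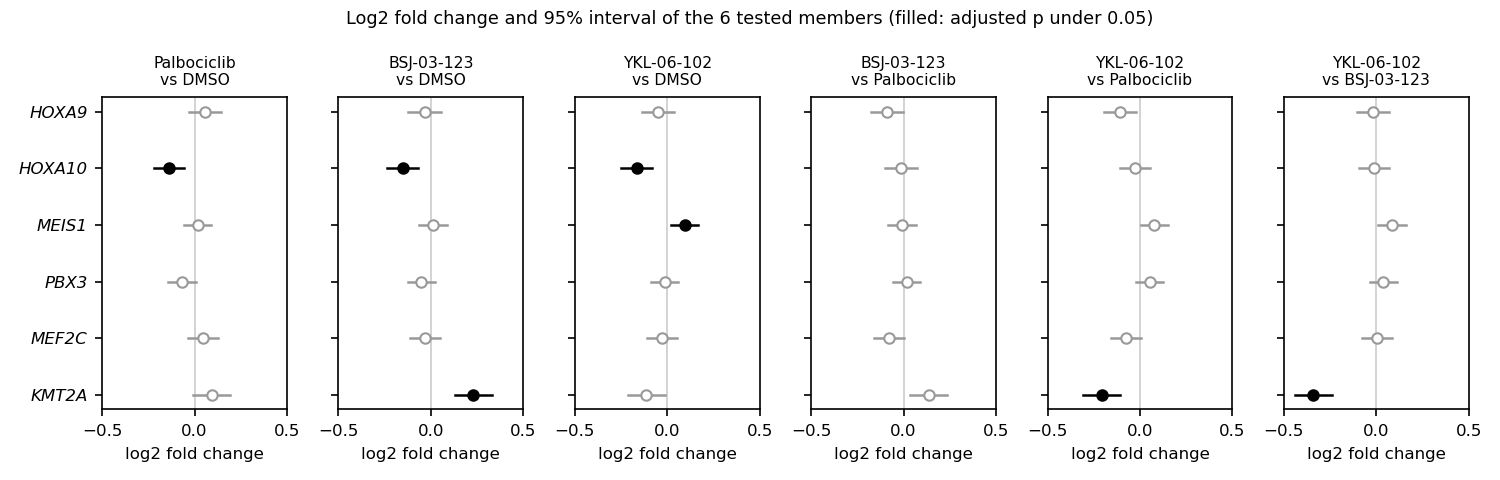
Log2 fold change (point) and 95% interval (line) of the 6 tested genes in the 6 comparisons between groups, filled where the adjusted p was under 0.05. HOXA10 lies below 0 against DMSO with each compound, and KMT2A is the gene that differs between YKL-06-102 and the other 2 compounds.

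The 3 compounds were compared in pairs at the same dose of 200 nM and the same time of 6 h, and p-values were adjusted over all tested genes of each pair. The labels name no structural difference between the 2 conjugates. KMT2A was lower with YKL-06-102 than with BSJ-03-123 by 0.34 ± 0.049 on the log2 scale, or 1.27-fold (log2 fold change -0.34, 95% interval -0.44 to -0.24, adjusted p = 4.89e-06, edgeR). It was also lower than with Palbociclib (-0.21 ± 0.049, 95% interval -0.31 to -0.11, adjusted p = 0.00203), a call that was lost without YKL-06-102 replicate 2 (-0.13, adjusted p = 0.0737). In both pairs KMT2A was the 1 gene of 6 called. For YKL-06-102 against BSJ-03-123, 10.4% of all genes were called higher, 9.74% lower and 20.1% in all, and the groups did not overlap for 2 of the 6 genes and 35.6% of all. For YKL-06-102 against Palbociclib, 12.7% were called higher, 11.9% lower and 24.7% in all, and the groups did not overlap for 4 of the 6 genes and 41.0% of all.

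Between BSJ-03-123 and Palbociclib edgeR called 0 of the 6 genes, in a comparison that called 22 genes, or 0.155%, higher and 0 lower over all tested genes. The groups did not overlap for 3 of the 6 genes and 15.2% of all. The difference in KMT2A was 0.14 (95% interval 0.036 to 0.24, adjusted p = 0.377), and that in HOXA9 was -0.091 (-0.18 to -0.0036, adjusted p = 0.577). These were the 2 genes of 6 at an unadjusted p under 0.05, and DESeq2 and limma-voom also called 0 of the 6. A missed threshold does not show that the compounds act alike: the intervals of HOXA10 (-0.098 to 0.070) and MEIS1 (-0.082 to 0.068) leave room for differences of several percent. HOXA9 was lower with YKL-06-102 than with Palbociclib by a log2 fold change of -0.11 (95% interval -0.19 to -0.022, adjusted p = 0.0613), and it passed with scaling by library totals (-0.12, adjusted p = 0.0404).

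MEIS1 was higher with YKL-06-102 than with the other compounds in all 3 libraries, by 0.078 over Palbociclib (95% interval 0.0047 to 0.15, adjusted p = 0.117, edgeR) and by 0.085 over BSJ-03-123 (0.011 to 0.16, adjusted p = 0.102). Neither passed in the analysis as designed. Both passed when only genes with a mean log2 CPM of 2 or more were tested (adjusted p = 0.0274 and 0.0245), with the length trend removed (0.0275 and 0.0227) and with the GC trend removed (0.00321 and 0.00404), the last 2 chosen after seeing the data. PBX3 and MEF2C passed in none of the 3 pairs.

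Of 33 HOX genes outside the set 9 were tested, and 0 passed in any of the 6 comparisons by edgeR, DESeq2 or limma-voom, with 0 or 1 at an unadjusted p under 0.05 in each. Of 3 tested antisense and noncoding genes of the HOXA cluster, 0 passed by the same tools, again with 0 or 1 at an unadjusted p under 0.05. In both lists 1 gene passed higher in some comparisons when a library was left out: without DMSO replicate 3 among the HOX genes with Palbociclib and BSJ-03-123, without YKL-06-102 replicate 3 among them with YKL-06-102, and without DMSO replicate 2, BSJ-03-123 replicate 3 or YKL-06-102 replicate 2 among the noncoding genes. With BSJ-03-123, 1 noncoding gene also passed higher with scaling by library totals. HOXA10-AS, which runs opposite to HOXA10, had 9.89 CPM in DMSO, 10.1 with Palbociclib, 9.81 with BSJ-03-123 and 11.3 with YKL-06-102. Of 7 tested TALE genes other than MEIS1 and PBX3, 2 rose and 2 fell with Palbociclib. With BSJ-03-123 and with YKL-06-102, 2 rose and 1 fell. These are 57.1%, 42.9% and 42.9% of the list, beside 33.3%, 28.1% and 36.9% of all tested genes. The HOX cofactor PBX2 and the repressor TGIF1 rose with all 3 compounds. PBX2 rose by 0.24, 0.24 and 0.23 and TGIF1 by 0.20, 0.19 and 0.20 with Palbociclib, BSJ-03-123 and YKL-06-102. TGIF1 with BSJ-03-123 overlapped DMSO, and its call was lost without BSJ-03-123 replicate 1 (0.15, adjusted p = 0.0770) or replicate 3 (0.15, adjusted p = 0.0820). PBX2 shares exon bases with another gene, and 84.9% of its bases are its own. PKNOX1, a competitor of MEIS1 for PBX partners, fell with Palbociclib by 0.24, and was higher with YKL-06-102 than with Palbociclib by 0.15 (adjusted p = 0.0120, edgeR). MEIS2 fell with Palbociclib (log2 fold change -0.23, adjusted p = 0.0318, edgeR) and with BSJ-03-123 (-0.29, adjusted p = 0.00903). Its call with Palbociclib was lost with library totals, with no filter on low counts and in DESeq2. It was also lost without DMSO replicate 1 or 3 or Palbociclib replicate 2 or 3.

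Among 39 tested genes of the KMT2A complex, its fusion partners and elongation cofactors, 3 rose and 11 fell with Palbociclib, 7 rose and 9 fell with BSJ-03-123, and 5 rose and 13 fell with YKL-06-102. These are 35.9%, 41.0% and 46.2% of the list, beside 33.3%, 28.1% and 36.9% of all tested genes called in either direction. The median log2 fold changes of the list were -0.015, 0.0056 and -0.061. PSIP1, which encodes LEDGF, the chromatin reader that tethers menin and KMT2A, fell with all 3 compounds. It had 78.4, 71.7 and 77.1 CPM in DMSO and 38.0 to 47.0 CPM in the 9 treated libraries, with no overlap. Its log2 fold change was -0.94 ± 0.051 with Palbociclib, -0.95 ± 0.052 with BSJ-03-123 and -0.79 ± 0.050 with YKL-06-102 (adjusted p = 6.19e-15, 8.96e-15 and 2.12e-13, edgeR). In the same comparisons the log2 fold changes of the 6 tested genes of the set ran from -0.16 for HOXA10 to 0.23 for KMT2A.

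DOT1L, the histone H3 lysine 79 methyltransferase recruited by KMT2A fusions, fell by 0.31, 0.20 and 0.26 with Palbociclib, BSJ-03-123 and YKL-06-102. It had 252.6 to 265.3 CPM in DMSO and 203.0 to 236.3 in the treated libraries, without overlap. WDR5, a core subunit of the methyltransferase complex, fell by 0.26, 0.26 and 0.18. If strand was not used, 88.5% of DOT1L exon bases and 88.8% of those of WDR5 are their own. AFF1, the fusion partner in this line, rose by 0.11 with Palbociclib and 0.20 with BSJ-03-123 and, like KMT2A, was lower with YKL-06-102 than with either (log2 fold changes -0.14 and -0.24, adjusted p = 0.00307 and 1.23e-05, edgeR). The AFF1 call with Palbociclib against DMSO was lost without DMSO replicate 1 (0.090, adjusted p = 0.104) or 2 (0.085, adjusted p = 0.0652) or Palbociclib replicate 1 or 2, and that between YKL-06-102 and Palbociclib without YKL-06-102 replicate 2 (-0.10, adjusted p = 0.0776). The super elongation complex subunit AFF4 rose by 0.28, 0.30 and 0.17 with the 3 compounds. AFF1 counts, like those of KMT2A, may include fusion transcripts. MEN1, which encodes menin, had log2 fold changes of 0.12 with both Palbociclib and BSJ-03-123 and of 0.15 with YKL-06-102, and of these the last passed the test (adjusted p = 0.0202, edgeR). Without DMSO replicate 2 the first 2 were 0.18 each and passed (adjusted p = 0.00385 and 0.00492), as they did with scaling by library totals (0.16 each), and with Palbociclib also with no filter on low counts (0.13). The MEN1 call with YKL-06-102 was lost without DMSO replicate 3 (0.099, adjusted p = 0.134) or YKL-06-102 replicate 1 or 3. The fusion partner gene MLLT3, picked out after its values were seen, had 5, 11 and 7 reads in DMSO, 9, 9 and 7 with Palbociclib, 12, 13 and 14 with BSJ-03-123 and 1, 1 and 5 with YKL-06-102.

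**Figure D4:**
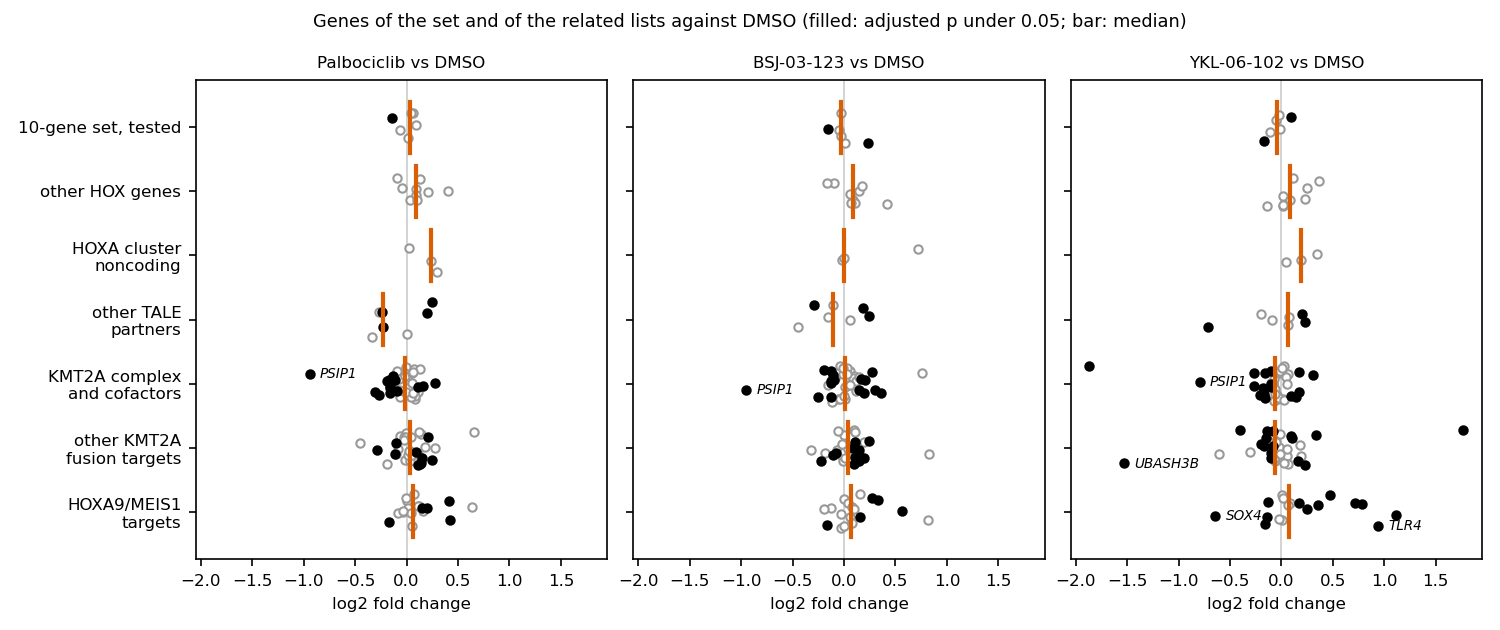
Log2 fold change against DMSO of each tested gene of the set and of 6 related lists, 1 panel per compound, with filled points where the adjusted p was under 0.05 and a bar at the median of the list. PSIP1 lies at -0.94, -0.95 and -0.79 with Palbociclib, BSJ-03-123 and YKL-06-102, and UBASH3B, SOX4 and TLR4 lie far from 0 with YKL-06-102.

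Of 33 tested other reported targets of KMT2A fusions, 7 rose and 3 fell with Palbociclib, 8 rose and 3 fell with BSJ-03-123, and 6 rose and 10 fell with YKL-06-102. These are 30.3%, 33.3% and 48.5% of the list, beside 33.3%, 28.1% and 36.9% of all tested genes. CDK6, itself such a target, rose by 0.14, 0.19 and 0.16, and the receptor kinase FLT3 rose by 0.21 with Palbociclib and 0.090 with BSJ-03-123. With YKL-06-102 FLT3 was below both, with log2 fold changes of -0.23 and -0.12 (adjusted p = 1.24e-06 and 0.00852, edgeR). The FLT3 call with BSJ-03-123 against DMSO was lost in 6 alternatives, with 2 groups only and without any of 5 libraries, DMSO replicate 2 among them (0.064, adjusted p = 0.113). That between YKL-06-102 and BSJ-03-123 was lost without BSJ-03-123 replicate 2 (-0.089, adjusted p = 0.108) or YKL-06-102 replicate 2 or 3. MYB, a progenitor factor, changed by -0.011 with Palbociclib and -0.0038 with BSJ-03-123 and fell by 0.10 with YKL-06-102. That call was lost with library totals (-0.066, adjusted p = 0.0867), with no filter on low counts (-0.073, adjusted p = 0.131), with 2 groups only (-0.083, adjusted p = 0.0840) and without DMSO replicate 1 or 3 or YKL-06-102 replicate 3. UBASH3B, a phosphatase that dampens receptor tyrosine kinase signalling, was lowest with YKL-06-102. It had 10.7, 9.80 and 11.1 CPM in DMSO, 11.3 to 11.7 with BSJ-03-123, 11.8 to 13.0 with Palbociclib and 3.93, 3.41 and 3.50 with YKL-06-102. The YKL-06-102 level was lower than that with BSJ-03-123 by 1.68 ± 0.096 on the log2 scale (log2 fold change -1.68, adjusted p = 1.43e-13, edgeR) and lower than that with Palbociclib by 1.78 ± 0.094 (log2 fold change -1.78, adjusted p = 1.49e-14). Its rise with Palbociclib against DMSO (0.25, adjusted p = 0.0148, edgeR) was lost without DMSO replicate 2 (0.19, adjusted p = 0.0972), without Palbociclib replicate 1 and in DESeq2.

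Reported targets of HOXA9 and MEIS1 changed in both directions. Of 18 tested genes, 4 rose and 1 fell with Palbociclib and with BSJ-03-123, and 8 rose and 4 fell with YKL-06-102. These are 27.8%, 27.8% and 66.7% of the list, beside 33.3%, 28.1% and 36.9% of all tested genes. SOX4, a progenitor transcription factor, had 31.9 to 35.0 CPM with YKL-06-102 and 51.4 to 54.0 in DMSO, and fell by 0.64 ± 0.055 on the log2 scale. The lipopolysaccharide receptor TLR4 rose by 0.94 ± 0.057 and the myeloid factor SPI1 by 0.47 ± 0.037 with YKL-06-102, and neither passed the test with Palbociclib or BSJ-03-123. YKL-06-102 exceeded Palbociclib and BSJ-03-123 by 0.89 and 0.78 for TLR4 (adjusted p = 6.54e-13 and 1.85e-11, edgeR) and by 0.40 and 0.40 for SPI1 (adjusted p = 1.45e-09 and 2.27e-09). The myeloid marker genes, SPI1 among them, summed highest with YKL-06-102 too, and the part of this in the list was not tested. In the same libraries HOXA9 was lower by 0.049 and MEIS1 higher by 0.094 against DMSO.

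**Figure D5:**
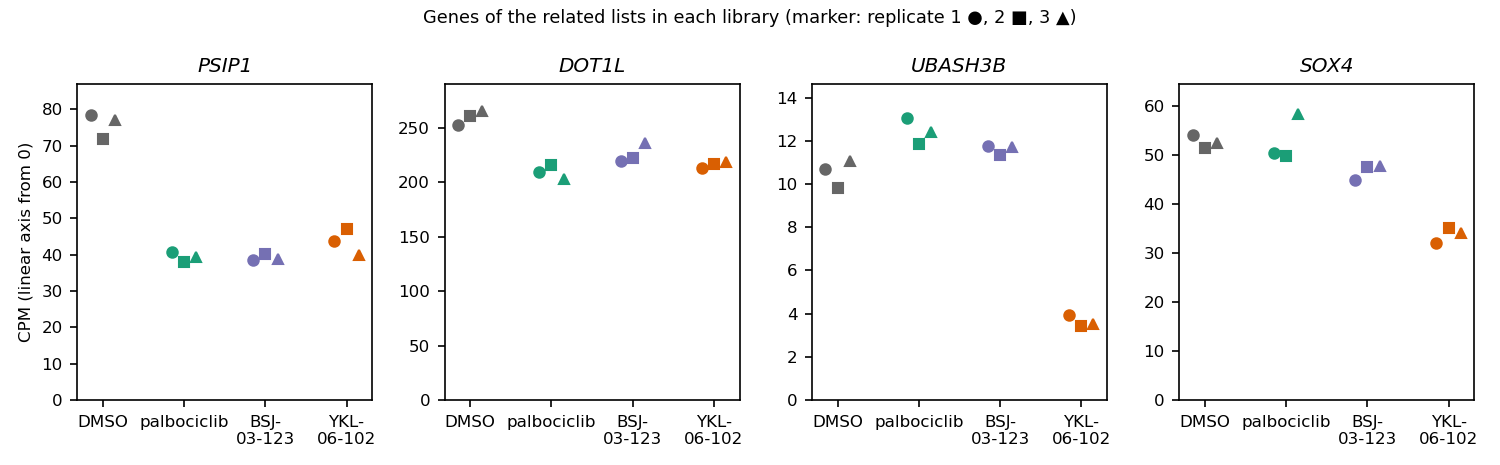
CPM of PSIP1, DOT1L, UBASH3B and SOX4 in each of the 12 libraries (linear axes from 0, marker for the replicate). PSIP1 falls from 71.7 to 78.4 CPM in DMSO to at most 47.0 CPM in every treated library, and UBASH3B is at 3.41 to 3.93 CPM in the YKL-06-102 libraries alone.

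Across the 12 libraries the genes of the set varied little with each other. The Pearson r of log2 CPM between pairs of the 6 expressed genes ran from -0.55 for PBX3 and KMT2A to 0.50 for HOXA9 and MEF2C, and HOXA9 with HOXA10 had 0.040. Points of such a correlation share the groups and the library depth, and it is given as a description. Among 10362 genes searched, the pattern most like HOXA9 was that of RBM3 (r = 0.91), that most like MEIS1 was RBSN (0.93), that most like PBX3 was DYNC1LI1 (0.91), and that most like MEF2C was SEC61A2 (0.85), each over 12 libraries. Each r is the highest of all genes searched, so its size owes part to the search. None of them was tested.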

How the data were processed

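The deposited values are raw read counts per Ensembl gene in 12 libraries, whole numbers that the authors had not normalized. The submitters' processing notes name Trimmomatic 0.36, STAR 2.5.2b and HTSeq as tools and hg38 as the build, and per the labels' protocols the library kit was a stranded TruSeq mRNA kit. HTSeq's version, its strand setting and the annotation release were not given in the sources used here. All columns were matched to a labelled library, and 0 were left over. Identifiers were named by GENCODE 29 (57447 of 58051). After edgeR's filterByExpr (minimum count 10, minimum total 15), 14214 genes were tested, with 99.9% of the counts, and 6 of the 10 genes of the set were among them. CPM used TMM factors. A single edgeR 4.0.16 fit held all 12 libraries (R 4.3.3, quasi-likelihood test, 2-sided, 8 residual degrees of freedom, Benjamini-Hochberg adjustment over all tested genes, called under 0.05). Intervals are 95% Wald values and, like floors from counts, do not cover what lies outside the libraries. Alternatives were other scalings and filters, DESeq2 1.42.0, limma-voom 3.58.1, 2 groups at a time, a replicate block, length and GC trends, and leaving out each library.

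The genes of the set and the related lists were chosen with earlier results of these data known. From each list, the 3 called genes with the largest change in each direction and an average log2 CPM of at least 2 could be named, with CDK6, FLT3, MYB, AFF1, MEN1 and DOT1L in any comparison, and not all are. Values of a gene named in 1 comparison are also given in others. Patterns most like a gene were ranked by Pearson r of log2 (CPM + 0.5). Some items are not reported here.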

Additional observations from a re-analysis of the deposited data

How the results depend on the processing

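Of 576 values of the 6 tested genes under alternatives, 526 kept their direction and their side of the threshold, 31 turned direction, 13 newly passed and 6 no longer passed. No value that turned direction had been called. Counts of called genes of the set moved as follows. Palbociclib against DMSO called 1 higher with library totals and with no filter, and between 0 and 1 without single libraries, and it called 0 lower with library totals and with no filter, and 0 to 1 without single libraries. YKL-06-102 against DMSO called 0 to 1 higher and 1 to 2 lower without single libraries. YKL-06-102 against Palbociclib called 1 higher with only genes of mean log2 CPM 2 or more, with 2 groups only and with the length or GC trend removed, 2 lower with library totals, and 0 to 1 lower without single libraries. YKL-06-102 against BSJ-03-123 called 1 higher with only genes of mean log2 CPM 2 or more and with the length or GC trend removed. Beyond the genes and settings named in the results, the cause was not tested.

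Log2 fold changes that turned direction were near 0. With library totals these were 0.011 for HOXA9 and 0.011 for MEF2C with BSJ-03-123 against DMSO, 0.024 for PBX3, 0.0091 for MEF2C, 0.011 for FLT3 and 0.0038 for AFF1 with YKL-06-102 against DMSO, 0.036 and 0.039 for MYB with Palbociclib and BSJ-03-123 against DMSO, -0.0040 for MEN1 in BSJ-03-123 against Palbociclib and -0.0022 for MEF2C in YKL-06-102 against BSJ-03-123. With no filter they were 0.015 for PBX3, 0.00060 for MEF2C and 0.0030 for FLT3 with YKL-06-102 against DMSO, 0.0091 and 0.0092 for MYB with Palbociclib and BSJ-03-123 against DMSO, -0.0068 for MEN1 in BSJ-03-123 against Palbociclib and 0.0040 for HOXA10 in YKL-06-102 against BSJ-03-123. With only genes of mean log2 CPM 2 or more they were 0.0093 for PBX3 with YKL-06-102 against DMSO and 0.0079 for HOXA9 and 0.012 for HOXA10 in YKL-06-102 against BSJ-03-123. With 2 groups only they were 0.0059 for PBX3 with YKL-06-102 against DMSO and -0.0031 for MEN1 in BSJ-03-123 against Palbociclib. With the length trend removed they were 0.0018 for MYB with BSJ-03-123 against DMSO and 0.070 for CDK6 in YKL-06-102 against BSJ-03-123. With the GC trend removed they were 0.018 for PBX3, 0.039 for MEF2C and 0.015 for FLT3 with YKL-06-102 against DMSO, 0.00027 for MYB with BSJ-03-123 against DMSO, and 0.023 for CDK6 and -0.00047 for MEN1 in YKL-06-102 against BSJ-03-123.

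Without single libraries, the range against DMSO was -0.016 to 0.058 for MEIS1 and -0.036 to 0.018 for MYB with Palbociclib, -0.023 to 0.051 for MEIS1 and -0.029 to 0.025 for MYB with BSJ-03-123, and -0.026 to 0.015 for PBX3, -0.029 to 0.00077 for FLT3 and -0.038 to 0.0081 for AFF1 with YKL-06-102. In BSJ-03-123 against Palbociclib it was -0.040 to 0.011 for HOXA10, -0.024 to 0.0077 for MEIS1, -0.0077 to 0.042 for PBX3, -0.00036 to 0.011 for MYB and -0.028 to 0.025 for MEN1. In YKL-06-102 against Palbociclib it was -0.053 to 0.021 for HOXA10. In YKL-06-102 against BSJ-03-123 it was -0.025 to 0.025 for HOXA9, -0.025 to 0.036 for HOXA10, -0.015 to 0.037 for MEF2C and -0.046 to 0.015 for CDK6.

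Over all genes, BSJ-03-123 against Palbociclib called 4 to 67 higher and 0 to 22 lower across alternatives, and the genes called lower without single libraries ran from 1028 to 1463 in YKL-06-102 against Palbociclib and from 797 to 1192 in YKL-06-102 against BSJ-03-123. With the replicate number as a block, the counts of called genes of the set were the same in all 6 comparisons, for example 1 higher and 1 lower with BSJ-03-123 against DMSO, and 1 HOXA noncoding gene newly passed, higher, in that comparison. The main fit did not pair same-numbered libraries, and the labels do not say whether they belong together. The correlation of their deviations ran from -0.17 to 0.23. It was over 0.1 in 2 of 3 pairs for BSJ-03-123 against DMSO and in 0 of 3 in the other comparisons. For BSJ-03-123 replicates 1, 2 and 3, the DMSO library of the same number correlated best. This did not hold for every replicate in any other comparison. Whether the libraries were paired is not settled by these values. Depth limits HOXA3, HOXA5, HOXA6 and HOXA7, whose differences between groups were not detectable at a few reads per library.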
